A study of Homo sapiens with 12 samples.

Results

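The nuclear genes that encode subunits of the oxidative phosphorylation complexes were followed through 4 kinds of RNA library and 2 kinds of RNA polymerase II ChIP library from K562 cells, an established line from a patient with chronic myelogenous leukaemia. The group held 52 genes, listed by their symbols: 28 of complex I, 4 of complex II, 7 of complex III, 7 of complex IV and 6 of complex V. They were 52 of the 28747 coding and long non-coding genes for which a span and a strand were at hand. Each gene's value was the sum of the deposited counts in 200 bp bins over its span in build hg38, taken on the gene's own strand in RNA libraries and over both strands together in ChIP libraries. All 52 were among the 17468 genes that passed the low-count filter in the RNA libraries and among the 27285 that passed it in the ChIP libraries. NDUFA4 carries the symbol COXFA4 in RefSeq and was counted with complex IV, to which it is now assigned.

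Every RNA group came from K562 cells exposed to 4-thiouridine (4sU), a uridine analogue that is built into new RNA, at 500 µM for 5 min. TT-Seq libraries held labelled RNA that was sheared with a sonicator and then purified, and 4sU-Seq libraries held labelled RNA purified without shearing. Total RNA-Frag-Seq libraries held sheared RNA and Total RNA-Seq libraries unsheared RNA, neither of them purified, and are called sheared and unsheared total RNA from here on. The N20 and S2P ChIP libraries were made with antibodies to RNA polymerase II and to its form phosphorylated at serine 2 of the C-terminal domain, after a crosslink of 7.5 min. Each of the 6 groups had 2 libraries, from cells with no further treatment or genotype in the labels. The series text calls the RNA samples biological duplicates. Nothing says this of the ChIP samples, so their p-values measure a spread that may be technical. In bulk samples such as these, fewer cells that transcribe a gene and less RNA per cell cannot be told apart.

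Oxidative phosphorylation passes electrons from NADH through complex I, and from succinate through complex II, to ubiquinone, complex III, cytochrome c and complex IV, where oxygen is reduced. Complexes I, III and IV pump protons across the inner mitochondrial membrane, and complex V, the ATP synthase, uses the gradient to make ATP. Most subunits are encoded in the nucleus and imported, while a small core is encoded by mitochondrial DNA. In many cell types the nuclear mRNAs are abundant and long-lived, and the factors NRF1, GABP (of the ETS family), YY1 and SP1 are known to act at many of their promoters.

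The promoters of 7 members are shown because they are the 3 lowest and the 3 highest in TT-Seq against sheared total RNA among members with an entry, with SDHA added for its repeated NRF1 letters. Each line gives the 150 bases before the start, 5′ to 3′ on the gene's strand, from RefSeq on GRCh38.p14. Capitals mark exact matches, on either strand, to the letters searched.
NDUFV1 (chr11:67606786-67606935, plus strand): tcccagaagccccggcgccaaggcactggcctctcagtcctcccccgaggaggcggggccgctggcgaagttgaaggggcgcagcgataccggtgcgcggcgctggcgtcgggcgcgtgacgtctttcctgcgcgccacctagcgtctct
NDUFB11 (chrX:47144703-47144852, minus strand): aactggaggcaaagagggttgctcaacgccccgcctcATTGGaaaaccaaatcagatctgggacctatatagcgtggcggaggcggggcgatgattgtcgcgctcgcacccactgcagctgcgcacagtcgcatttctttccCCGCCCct
NDUFB10 (chr16:1959388-1959537, plus strand): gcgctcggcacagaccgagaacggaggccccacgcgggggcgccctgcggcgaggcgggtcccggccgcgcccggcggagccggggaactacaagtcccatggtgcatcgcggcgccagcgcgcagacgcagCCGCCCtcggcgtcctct
NDUFA9 (chr12:4648964-4649113, plus strand): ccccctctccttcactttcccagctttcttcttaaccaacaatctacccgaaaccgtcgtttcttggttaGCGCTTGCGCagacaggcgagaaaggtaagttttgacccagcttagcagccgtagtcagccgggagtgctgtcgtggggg
SDHB (chr1:17054033-17054182, minus strand): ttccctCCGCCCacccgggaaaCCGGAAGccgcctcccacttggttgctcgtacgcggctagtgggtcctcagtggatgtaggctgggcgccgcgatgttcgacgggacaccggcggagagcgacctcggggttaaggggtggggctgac
NDUFC1 (chr4:139302552-139302701, minus strand): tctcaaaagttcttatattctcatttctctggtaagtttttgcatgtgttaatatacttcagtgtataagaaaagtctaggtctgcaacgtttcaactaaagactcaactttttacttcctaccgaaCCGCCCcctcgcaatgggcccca
SDHA (chr5:218170-218319, plus strand): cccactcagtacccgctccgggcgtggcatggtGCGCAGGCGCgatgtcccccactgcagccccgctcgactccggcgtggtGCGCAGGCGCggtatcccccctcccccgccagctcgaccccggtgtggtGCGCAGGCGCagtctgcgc
NDUFV1 held none of the letters searched in this stretch. NDUFB11 held CCAAT (here as ATTGG) and the SP1 letters, NDUFB10 and NDUFC1 the SP1 letters, NDUFA9 the NRF1 letters and SDHB the ETS and SP1 letters. SDHA held the NRF1 letters 3 times. NDUFC1 has 4 listed starts and the stretch shown lies before the outermost. The listed start of NDUFB11 lies inside its span, and so does the stretch shown.

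Promoters of 300 bases (250 before and 50 after the start) were at hand for 42 of the 52 members, and motifs were searched on both strands in all of it. The NRF1 letters (GCGC, any base, T, then GCGC) were present in 9 of 42 members, which is 21.4%, against 10.9% of the promoters of 12089 coding genes tested and 6.29% of all 27305 promoters. The ETS letters CCGGAAG were present in 12 members, or 28.6%, against 17.5% of tested coding genes and 10.6% of all promoters. The YY1 letters AAGATGGC were present in 7 members, or 16.7%, against 4.8% and 3.01%. CCAAT was present in 8 members, or 19%, against 36.4% and 35.7%. The SP1 letters GGGCGG were present in 30 members, or 71.4%, against 67% and 44.5%, and TATAAA in 3 members, or 7.14%, against 6.5% and 12%. The reverse form of the SP1 letters can share its last letters with the ETS letters, as in NDUFS3. These shares describe letters in a window and were not tested.

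Total counts per library were 25909021 to 71317148 for RNA and 12598494 to 73660126 for ChIP. The members held 261 counts (NDUFC1, unsheared total RNA) to 12081 counts (NDUFV2, TT-Seq) in an RNA library. Their spans ran from 1924 bp (COX8A) to 132901 bp (NDUFA10), with a median of 11211 bp. The 12 erythroid marker genes measured were at 0.99 to 51.9 counts-per-million units (CPM) per kb in unsheared total RNA, while no marker of 8 other cell types exceeded 2.51. Counts of the RNA replicates differed by 3.12 to 12.21 times sampling noise (chi-square per degree of freedom) and those of the S2P replicates by 43.73 times. The members together made up 0.25 to 0.26% of the gene counts in TT-Seq, 0.313 to 0.334% in 4sU-Seq, 0.313 to 0.368% in sheared total RNA and 0.387 to 0.392% in unsheared total RNA.

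Levels were compared between genes only per length, as CPM per kb of span, where a span includes introns. The members were abundant in every RNA group. Their median was 3.21 CPM per kb in TT-Seq, 4.16 in 4sU-Seq, 4.48 in sheared total RNA and 4.52 in unsheared total RNA, where the medians of 13533 tested coding genes were 1.06, 1.06, 1.12 and 1.04. Of the 52 members, 51 lay above the median of coding genes in TT-Seq, 52 in 4sU-Seq, 50 in sheared total RNA and 49 in unsheared total RNA.

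The highest level in TT-Seq was that of COX8A, a small subunit of complex IV, at 12.4 and 12.1 CPM per kb in the 2 libraries. UQCRQ, a subunit of complex III, followed at 12.4 and 12, and ATP5F1B, the catalytic beta subunit of the ATP synthase, at 11.8 and 11.4. COX8A and UQCRQ overlapped, and both ATP5F1B values lay below theirs. The lowest TT-Seq levels were those of NDUFA5 at 0.998 and 0.91, NDUFA10 at 1.19 and 1.21 and NDUFA9 at 1.45 and 1.40 CPM per kb, all subunits of complex I with spans over 40 kb.

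In unsheared total RNA the order differed at the top. CYC1, the cytochrome c1 of complex III, stood at 42 and 45 CPM per kb, COX8A at 42.6 and 41.2 and ATP5F1B at 35.9 and 38.6, so the first pair overlapped. The lowest levels were those of NDUFA9 at 0.856 and 0.761, NDUFC1 at 1.17 and 0.89 and SDHC at 1.12 and 0.958. NDUFC1 and SDHC overlapped, and both NDUFA9 values lay below theirs. Across the 52 members the Spearman correlation of the TT-Seq with the unsheared total RNA level was 0.81, against 0.92 over coding genes. Both levels share the span length as their denominator.

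**Figure D1:**
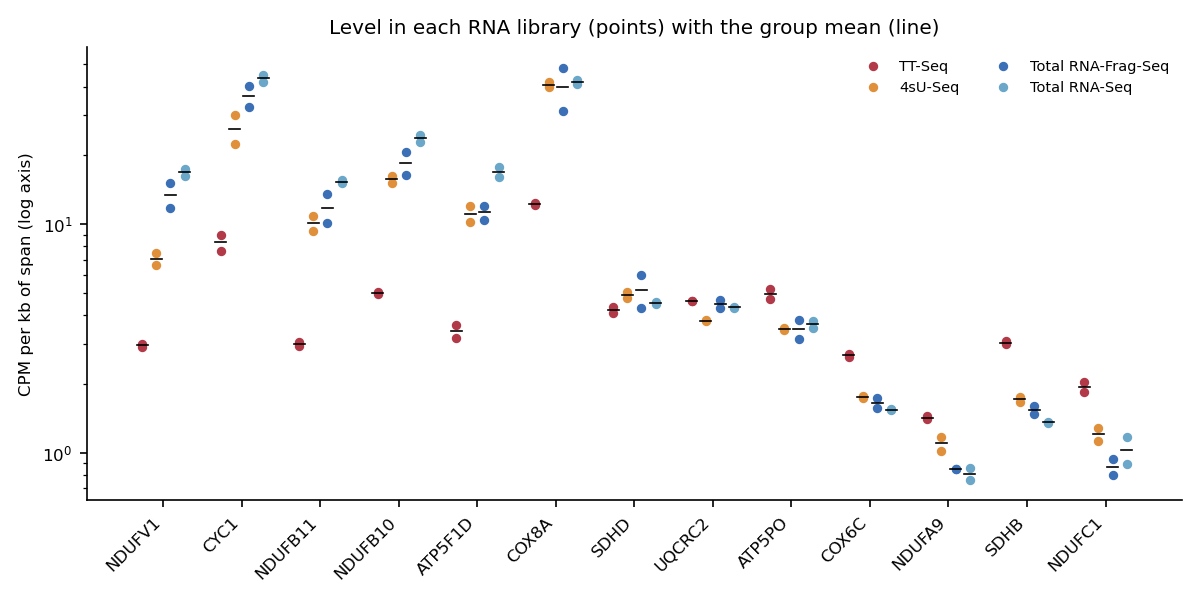
Level per kb of span in each of the 8 RNA libraries (log axis) for 13 members ordered by their TT-Seq to sheared total RNA fold change, with points for libraries and a line for the mean of 2. For NDUFV1 to COX8A the TT-Seq points lie below all 6 others, for ATP5PO to NDUFC1 they lie above all 6, and for SDHD and UQCRC2 they overlap with other groups.

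TT-Seq against sheared total RNA asks how purification of labelled RNA changes a gene's share when the RNA has been sheared. Of the 52 members, 29 were lower in TT-Seq, 7 were higher and 16 were not called (edgeR quasi-likelihood test, adjusted p under 0.05 over 17468 genes). Of all genes tested 33.5% were lower and 32.8% higher, and among coding genes 37.8% were lower and 30.7% higher. The median log2 fold change of the members was -0.29, against -0.02 over all genes and -0.09 over coding genes. All fold changes are relative within a library, since libraries were scaled to the bulk of the genes.

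Complex I, which takes electrons from NADH, had 17 of 28 members lower and 3 higher. The lowest of all members was NDUFV1, the core subunit that binds NADH and the flavin cofactor, at 17.4 and 16.9 CPM in TT-Seq against 87.7 and 68.5 in sheared total RNA (log2 fold change -2.19 ± 0.11 (SE), edgeR adjusted p = 8.99e-10). Its purified unsheared libraries had 38.5 and 43.2 CPM and its unsheared total libraries 93.9 and 101.2, so both TT-Seq values lay below the other 6. NDUFB11, an accessory subunit of the membrane arm, had 9.92 and 10.4 CPM against 46 and 34.4 (-1.99 ± 0.13, edgeR adjusted p = 1.16e-08). NDUFB10, another accessory subunit of that arm, had 13.2 and 12.8 CPM against 53.5 and 42.7 (-1.89 ± 0.10, edgeR adjusted p = 6.8e-10). The core iron-sulphur subunits NDUFS7 and NDUFS8 were lower too, at -1.13 and -1.04, and so was NDUFA2 at -1.43.

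The 3 members of complex I that were higher were NDUFC1, NDUFA9 and NDUFA8. NDUFC1, a small accessory subunit, had 26 and 23.6 CPM in TT-Seq against 12 and 10.2 in sheared total RNA (1.15 ± 0.12, edgeR adjusted p = 1.13e-06). Its span overlaps NAA15 on the other strand. NDUFA9, an accessory subunit, had 65.8 and 63.5 CPM against 38.5 and 38.5 (0.75 ± 0.08, edgeR adjusted p = 1.05e-06). NDUFA8 was higher by a log2 fold change of 0.24. For NDUFC1 and NDUFA9 the TT-Seq values lay above those of all 6 other RNA libraries.

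Complex II, the succinate dehydrogenase, is the one complex with no subunit encoded in mitochondrial DNA, and had 2 of 4 members higher and 1 lower. SDHB, its iron-sulphur subunit, had 110 and 106 CPM in TT-Seq, 59.3 and 62.7 in 4sU-Seq, 56.9 and 52.5 in sheared total RNA and 47.9 and 48.6 in unsheared total RNA (TT-Seq against sheared total RNA 0.98 ± 0.07, edgeR adjusted p = 7.3e-09). Both TT-Seq libraries lay far above the other 6. SDHC, a membrane anchor subunit, was higher at 0.43, and SDHA, the flavoprotein, was not called at 0.14. SDHD, the other anchor subunit, had 38.9 and 36.7 CPM against 53.9 and 38.6 (-0.30 ± 0.12, edgeR adjusted p = 0.0437). Its groups overlapped, and the value was -0.02 and not called without replicate 1 of sheared total RNA.

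Complex III, which passes electrons from ubiquinol to cytochrome c, had 3 of 7 members lower and none higher. CYC1 had 23.4 and 19.9 CPM in TT-Seq against 105 and 84.4 in sheared total RNA (-2.13 ± 0.15, edgeR adjusted p = 6.99e-07). UQCRC1, a core subunit, was lower at -0.97 and UQCRQ at -0.89. The other core subunit, UQCRC2, had 141.3 and 140.8 CPM against 142.1 and 131.2 (0.05 ± 0.06, edgeR adjusted p = 0.522). PDZD9 shares most of the UQCRC2 span on the same strand: over the bins free of it UQCRC2 was called higher at 0.61, and over the authors' unit, which also holds PDZD9, it stood at -0.32.

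Complex IV, the cytochrome c oxidase, had 4 of 7 members lower and 1 higher. COX8A had 24.9 and 24.2 CPM in TT-Seq against 96.8 and 62.7 in sheared total RNA (-1.71 ± 0.16, edgeR adjusted p = 6.79e-06). COX6C was higher, with 43.1 and 42.1 CPM against 27.8 and 25 (0.69 ± 0.08, edgeR adjusted p = 1.33e-06). COX5B, COX4I1 and COX7C were lower at -0.80, -0.70 and -0.29.

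Complex V, the ATP synthase, had 4 of 6 members lower and 1 higher. ATP5F1D, the delta subunit of the central stalk, had 10.8 and 12.3 CPM in TT-Seq against 41 and 35.5 in sheared total RNA (-1.73 ± 0.11, edgeR adjusted p = 3.8e-09). ATP5F1B and ATP5F1A, subunits of the catalytic head, were lower at -1.53 and -0.78. ATP5PO, which joins the peripheral stalk to the catalytic head, was higher, with 65.4 and 59.2 CPM against 47.8 and 39.7 (0.51 ± 0.09, edgeR adjusted p = 0.000116).

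**Figure D2:**
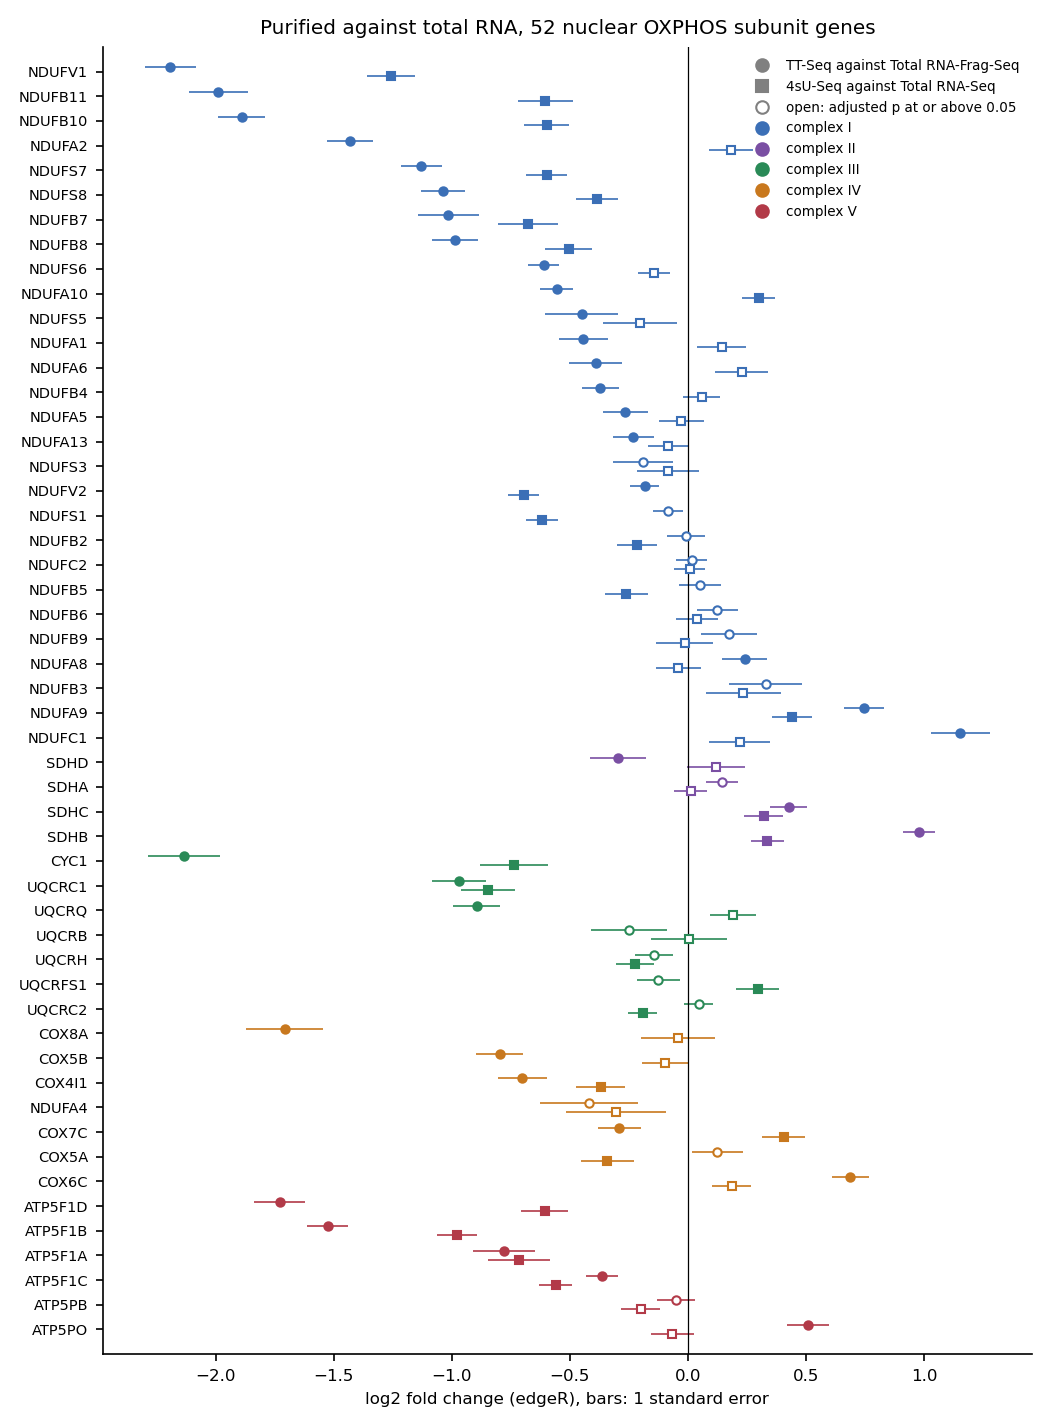
Log2 fold change of each of the 52 members in TT-Seq against sheared total RNA (circles) and in 4sU-Seq against unsheared total RNA (squares), coloured by complex, with bars of 1 standard error and open marks where the edgeR adjusted p was at or above 0.05. Circles range from -2.19 (NDUFV1) to 1.15 (NDUFC1) and squares from -1.26 (NDUFV1) to 0.44 (NDUFA9).

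Fewer members were called when purified and total RNA were compared without shearing. In 4sU-Seq against unsheared total RNA, 21 of 52 members were lower, 6 were higher and 25 were not called by edgeR, where 28.1% of all genes were lower and 28.1% higher (coding genes 34% and 24.7%). The median of the members was -0.09, against 0.01 over all genes and -0.07 over coding genes. With only coding genes in the fit, the higher share of the members' calls moved from 22.2% to 34.6%. By complex, 11 of 28 members of complex I, 0 of 4 of complex II, 4 of 7 of complex III, 2 of 7 of complex IV and 4 of 6 of complex V were lower.

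NDUFV1 was again lowest, with 38.5 and 43.2 CPM in 4sU-Seq against 93.9 and 101.2 in unsheared total RNA (-1.26 ± 0.10, edgeR adjusted p = 3.33e-07). ATP5F1B had 152.1 and 150.7 CPM against 287.2 and 308.9 (-0.98 ± 0.08, edgeR adjusted p = 5.14e-07), and UQCRC1 19.9 and 23.1 against 38.9 and 38.3 (-0.84 ± 0.11, edgeR adjusted p = 2.54e-05). For all 3 genes the groups were apart. The highest were NDUFA9 at 53.3 and 46.4 CPM against 38.9 and 34.6 (0.44 ± 0.09, edgeR adjusted p = 0.000437), COX7C at 60.4 and 65.7 against 47.4 and 47.7 (0.41 ± 0.09, edgeR adjusted p = 0.00148) and SDHB at 59.3 and 62.7 against 47.9 and 48.6 (0.34 ± 0.07, edgeR adjusted p = 0.000791).

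The 2 purification comparisons use different libraries. Of the members, 15 were lower in both (among them NDUFV1, CYC1, UQCRC1, ATP5F1A, ATP5F1B and ATP5F1D) and 3 were higher in both (NDUFA9, SDHB and SDHC), where 19.3% of all genes were lower in both and 20% higher in both. Another 12 were lower with sheared RNA and not called without shearing, 6 the reverse, and 9 were called in neither, where the shares of all genes were 12%, 6.77% and 21.1%. A further 4 were higher with sheared RNA and not called without, and 1 the reverse, against 10.8% and 5.91% of all genes. NDUFA10 and COX7C were lower with sheared RNA and higher without, as were 2.17% of all genes.

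The difference between the 2 purification effects was tested as an interaction. It was lower for 20 members and higher for 8 by edgeR, where 23.4% of all genes were lower and 18.3% higher (coding genes 25.1% and 21.2%). The median of the members was -0.19, against -0.02 over all genes. COX8A had the lowest value (-1.67 ± 0.22, edgeR adjusted p = 0.000308), and was not called in 4sU-Seq against unsheared total RNA at -0.04, with 79.3 and 83.7 against 85.2 and 82.5 CPM. NDUFA2, an accessory subunit of complex I, had -1.61 ± 0.13 (edgeR adjusted p = 1.09e-06) and CYC1 -1.40 ± 0.21 (edgeR adjusted p = 0.000528). SDHB had 0.64 ± 0.10 (edgeR adjusted p = 0.000124) and ATP5PO 0.57 ± 0.13 (edgeR adjusted p = 0.00215).

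TT-Seq and 4sU-Seq share labelling and purification and differ in shearing, and the members' fold changes between them were ordered by gene length. In this comparison 27 members were lower, 13 higher and 12 not called by edgeR, where 29% of all genes were lower and 28.6% higher (coding genes 31.6% and 32.5%). Without scaling factors beyond library totals the median of all genes moved by -0.16, and 8 members were higher, as were 19.7% of all genes. The lowest was NDUFA2 at 12.2 and 11.7 CPM in TT-Seq against 38.5 and 43.4 in 4sU-Seq (-1.77 ± 0.10, edgeR adjusted p = 3.08e-09). NDUFB11 had 9.92 and 10.4 CPM against 31.6 and 37 (-1.76 ± 0.12, edgeR adjusted p = 7.56e-08) and COX8A 24.9 and 24.2 against 79.3 and 83.7 (-1.73 ± 0.16, edgeR adjusted p = 8.29e-06). The highest were SDHB at 110 and 106 CPM against 59.3 and 62.7 (0.82 ± 0.07, edgeR adjusted p = 8.07e-08), NDUFC1 at 26 and 23.6 against 14.4 and 16.4 (0.69 ± 0.12, edgeR adjusted p = 0.000141) and NDUFV2, an iron-sulphur core subunit of complex I, at 219.3 and 213.1 against 132.7 and 138 (0.68 ± 0.06, edgeR adjusted p = 3.03e-07).

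All 10 members with a span under 5 kb (NDUFA1, NDUFA2, NDUFB10, NDUFB11, UQCRQ, CYC1, COX5B, COX7C, COX8A and ATP5F1D) were lower in TT-Seq against 4sU-Seq, with a median of -1.65. Of 1211 coding genes of that length 71.8% were lower, with a median of -0.91. The same 10 members were lower in TT-Seq against sheared total RNA, with a median of -1.57. There 70.7% of coding genes of that length were lower, with a median of -1.01. Of the 26 members of 5 to 15 kb, 3 were higher and 16 lower in TT-Seq against 4sU-Seq, with a median of -0.39. Of 2568 coding genes of that length 11.4% were higher and 55.5% lower, with a median of -0.44. In TT-Seq against sheared total RNA 2 of these 26 members were higher and 14 lower, with a median of -0.33. There 13.7% of coding genes of that length were higher and 61.7% lower, with a median of -0.56. Of the 10 members with spans of 15 to 40 kb, 7 were higher and 0 lower in TT-Seq against 4sU-Seq. Of 3641 coding genes of that length 33.6% were higher and 29.5% lower. In TT-Seq against sheared total RNA 3 of these 10 members were higher and 3 lower, with a median of 0.09. There 27.1% of coding genes of that length were higher and 42.4% lower, with a median of -0.14. Of the 6 members over 40 kb, 3 were higher and 1 lower in TT-Seq against 4sU-Seq, where 46.5% of coding genes of that length were higher and 14.8% lower. The Spearman correlation of the fold change with the span length across the 52 members was 0.82 in TT-Seq against 4sU-Seq, 0.68 in TT-Seq against sheared total RNA and 0.17 in 4sU-Seq against unsheared total RNA. Over 13533 coding genes it was 0.37, 0.41 and 0.35. Genes are not independent replicates and these comparisons share libraries, so the correlations are given as descriptions.

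**Figure D3:**
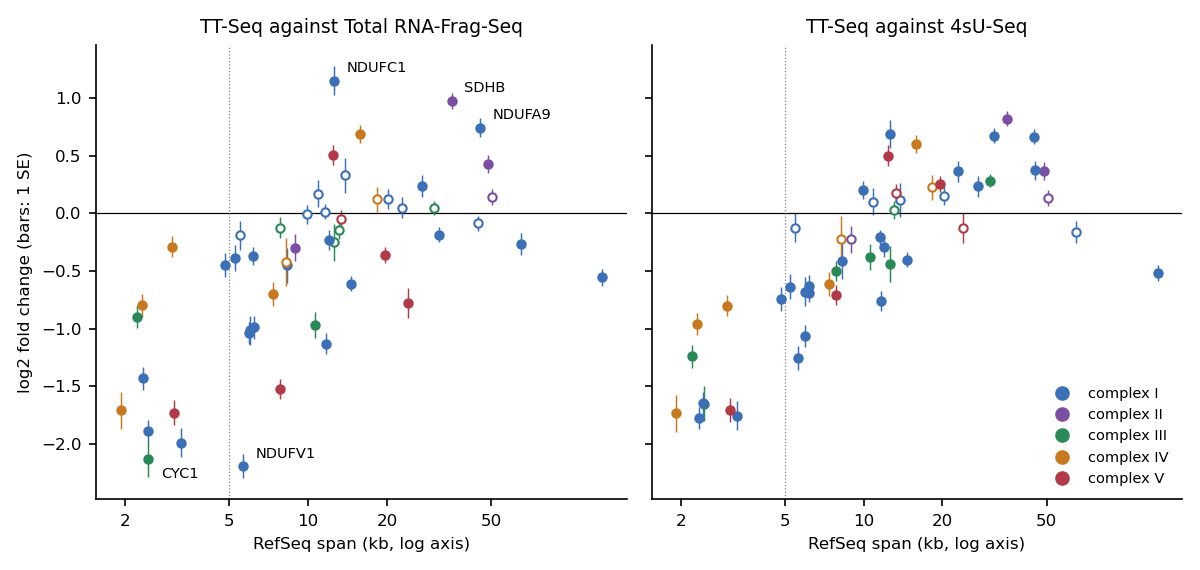
Log2 fold change against the RefSeq span in kb (log axis) for the 52 members in TT-Seq against sheared total RNA (left) and against 4sU-Seq (right), coloured by complex, with bars of 1 standard error, open marks for uncalled members and a dotted line at 5 kb. All 10 members left of the dotted line lie below 0 in both panels, while SDHB and NDUFC1 lie high in both.

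Few members were called for shearing of unpurified RNA. In sheared total RNA against unsheared total RNA 7 members were lower, 2 higher and 43 not called by edgeR, where 10.7% of all genes were lower and 18.1% higher (coding genes 12.2% and 19.9%). The count of lower members moved whenever a single library of these groups was left out. It fell without replicate 2 of sheared total RNA or either replicate of unsheared total RNA, and so did the share of all genes called lower. It rose without replicate 1 of sheared total RNA, where the share of all genes stayed about the same. Without scaling factors beyond library totals the median of all genes moved by -0.14, and 15 members were lower and 1 higher. Of all genes 22.2% were lower and 10% higher in that setting.

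ATP5F1D had 41 and 35.5 CPM in sheared total RNA against 54.5 and 60.4 in unsheared total RNA (-0.58 ± 0.10, edgeR adjusted p = 0.00072). NDUFS8, a core iron-sulphur subunit, had 50.1 and 43.7 CPM against 58 and 67 (-0.41 ± 0.09, edgeR adjusted p = 0.00365), and was not called without replicate 2 of unsheared total RNA at -0.32. NDUFA10, the longest member and an accessory subunit of complex I, had 235.1 and 235.2 CPM against 188.6 and 182.9 (0.34 ± 0.07, edgeR adjusted p = 0.00224). SDHC was the other higher call, at 0.26, and was lost in several alternatives, for example at 0.14 without replicate 2 of unsheared total RNA.

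Counts within the spans were spread more evenly in TT-Seq. Over 43 members with enough bins and counts, the densest 10% of bins held a median of 40% of a member's TT-Seq counts (40.6 and 38.5% in the 2 libraries). They held 59.4% in 4sU-Seq, 61.7% in sheared total RNA and 65.1% in unsheared total RNA. Over 8581 coding genes the shares were 34.5, 40.9, 44.5 and 50.2%. The bins were not assigned to exons or introns.

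RNA beyond the annotated 3′ ends was higher in TT-Seq. In the 3000 bp after the end, 50 members passed the filter, and 40 were higher and 5 lower in TT-Seq than in sheared total RNA by edgeR, where 67.4% of all windows were higher and 11.6% lower (coding genes 71.4% and 10.2%). The median of the members was 1.48 and that of coding genes 1.39. ATP5PO had the highest fold change, with 5.1 and 5.58 CPM in TT-Seq against 0.366 and 0.185 in sheared total RNA (4.20 ± 0.26, edgeR adjusted p = 6.77e-23). UQCRFS1, the Rieske iron-sulphur protein of complex III, had 13.8 and 13.4 CPM against 2.14 and 2.0 (2.71 ± 0.16, edgeR adjusted p = 7.45e-25). NDUFB9 had the highest TT-Seq level in such a window, 17.1 and 16.3 CPM against 3.36 and 3.89, in a window that holds part of another gene. NDUFA10, NDUFB8, NDUFB10, NDUFA13 and SDHC were lower, and the windows of NDUFB10 and NDUFA13 held part of another gene.

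The decline past the end was followed in 34 members, as medians of CPM per kb in the 2 libraries of each group. They had spans of at least 3000 bp and no other gene on their strand in the 3000 bp past the end, its first bin apart. Windows further out were not checked for other genes. The first kb past the end was counted from the bin that holds the end, so it can include the last bases of the gene. In the last kb of the gene TT-Seq had 5.07 and 4.08, and unsheared total RNA 6.25 and 5.65. In the first kb past the end TT-Seq had 2.47 and 2.32, 4sU-Seq 1.14 and 1.1, sheared total RNA 1.35 and 1.06, and unsheared total RNA 1.33 and 1.37. Between 1 and 2 kb past the end the values were 0.761 and 0.679 in TT-Seq, 0.365 and 0.35 in 4sU-Seq, 0.226 and 0.167 in sheared total RNA, and 0.256 and 0.218 in unsheared total RNA. Both TT-Seq libraries lay above the other 6 in each window past the end.

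**Figure D4:**
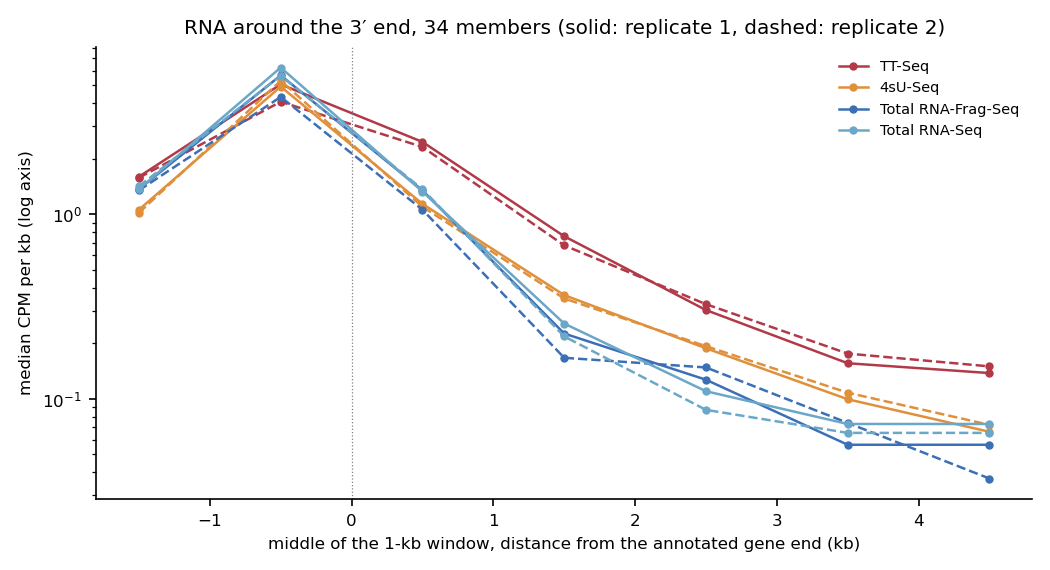
Median CPM per kb (log axis) over 34 members in 1-kb windows around the annotated gene end, plotted at the middle of each window, with solid lines for replicate 1 and dashed lines for replicate 2 of the 4 RNA groups. The groups lie close in the last kb of the gene, and the TT-Seq lines lie above all others past the end, at 2.47 and 2.32 in the first kb. That first kb begins with the bin that holds the end.

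On the strand opposite to the gene, the 1000 bp before the start passed the filter for 40 members. Of these, 29 were higher and 5 lower in TT-Seq than in sheared total RNA by edgeR, where 57.1% of all windows were higher and 18% lower (coding genes 66% and 13.2%). The median of the members was 1.01 and that of coding genes 1.47. Of the 13 members tested whose window held no other gene, 12 were higher and 0 lower, where 82.3% of 3559 such windows over all genes were higher and 4.33% lower. ATP5F1B had the highest fold change, with 2.59 and 2.82 CPM against 0.169 and 0.148 (4.05 ± 0.32, edgeR adjusted p = 2.76e-15). NDUFV2, with a window free of other genes, had 4.42 and 3.76 CPM against 0.536 and 0.481 (2.99 ± 0.24, edgeR adjusted p = 3.72e-15). The 5 lower windows were those of NDUFS1, COX4I1, NDUFB11, NDUFA1 and ATP5PB. The windows with the highest TT-Seq levels were those of NDUFA1, at 6.25 and 4.99 CPM against 14.7 and 14.6, and NDUFS1, at 4.9 and 5.31 against 22 and 17.8, and these 2 overlapped in TT-Seq. The NDUFA1 window lies toward RNF113A, a gene 99 bp from NDUFA1.

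Polymerase ChIP counts carry no strand, and 37 of the 52 members have another coding or long non-coding gene overlapping them or within 1000 bp on either strand. Every ChIP count above 0 in a bin was an even number, against 37.7 to 41.4% of RNA bins, and fits on halved counts also called 17 members higher and 3 lower. In S2P against N20 ChIP as deposited, 17 members were higher in S2P, 3 lower and 32 not called by edgeR, where 23.3% of all genes were higher and 20% lower (coding genes 31.7% and 14.7%). The median of the members was 0.31, against -0.01 over all genes and 0.16 over coding genes. Without scaling factors beyond library totals the median of all genes moved by -0.51 and 19 members were lower. The higher share of the members' calls was then 42.4% instead of 85%. Of all genes 44.7% were then lower, and the higher share of their calls was 21.9% instead of 53.8%. With coding genes only, 7 members were lower and 69.6% of their calls higher, where 21.7% of genes were lower and 54% of calls higher. Among the 15 members with no other gene within 1000 bp, 5 were higher and 0 lower. No share was taken over other genes so isolated, and over all coding genes it was 31.7% higher and 14.7% lower. The count of lower members fell without either N20 replicate and rose without replicate 2 of S2P. The share of all genes called lower moved the same way in these fits.

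Complex I had 12 of 28 members higher in S2P and 2 lower, complex III had 3 of 7 higher, complex II 1 of 4, complex V 1 of 6 with 1 lower, and none of the 7 of complex IV were called. NDUFA2 had 13.7 and 12.3 CPM in N20 and 62.1 and 96.6 in S2P (2.61 ± 0.23, edgeR adjusted p = 4.69e-05). It overlaps TMCO6, and over its body alone it was not called at 0.46. NDUFB10 had 25.3 and 33.9 CPM against 199.4 and 132.6 (2.48 ± 0.23, edgeR adjusted p = 0.000135) and lies 83 bp from RPS2, a ribosomal protein gene. CYC1, whose nearest gene SHARPIN lies 1112 bp away, had 24.5 and 28.3 CPM against 75.1 and 118.4 (1.87 ± 0.22, edgeR adjusted p = 0.000327). For these 3 genes both S2P values lay above both N20 values.

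NDUFB9, an accessory subunit of complex I that lies 35 bp from TATDN1, was lowest, with 27 and 20.5 CPM in N20 against 8.33 and 10.7 in S2P (-1.33 ± 0.23, edgeR adjusted p = 0.00119). NDUFA1, another accessory subunit of complex I, had 7.39 and 7.69 CPM against 4.23 and 3.13 (-1.02 ± 0.27, edgeR adjusted p = 0.0121). Over their bodies alone neither was called, at -0.24 and -0.66, and NDUFA1 was not called without either N20 replicate. NDUFB11, which overlaps RBM10, had 14.2 and 10.1 CPM against 4.49 and 11 and was not called (-0.66 ± 0.43, edgeR adjusted p = 0.258). The contribution of the neighbouring genes to these values was not tested further.

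N20 signal was dense at the members' starts. The ratio of N20 density from 200 bp before to 400 bp after the start to the density from 1 kb after the start to the gene's end had a median of 19.9 over 41 members (20.7 and 18 in the 2 libraries), against 11.8 over 12683 coding genes, and 28 of the 41 lay above that value. For S2P the median of the members was 4.9 (3.59 and 6.56 in the 2 libraries), against 5.98 over coding genes, with 19 of 41 above. The highest N20 ratios were those of UQCRFS1 at 140 and 96.7, NDUFV2 at 131 and 97, and ATP5F1C, the gamma subunit of the ATP synthase, at 72.7 and 43.5. UQCRFS1 and NDUFV2 overlapped, and both lay above ATP5F1C. The UQCRFS1 ratio rests on 12 and 34 N20 counts over its body, near the required minimum of 10. The NDUFV2 body held 82 and 182. The lowest ratios were those of NDUFA5, with no N20 count at its outermost of 3 listed starts, NDUFC1 at 0.744 and 0.363 and NDUFB3 at 1.16 and 2.18. Among members with 1 listed start the median was 22.3.

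**Figure D5:**
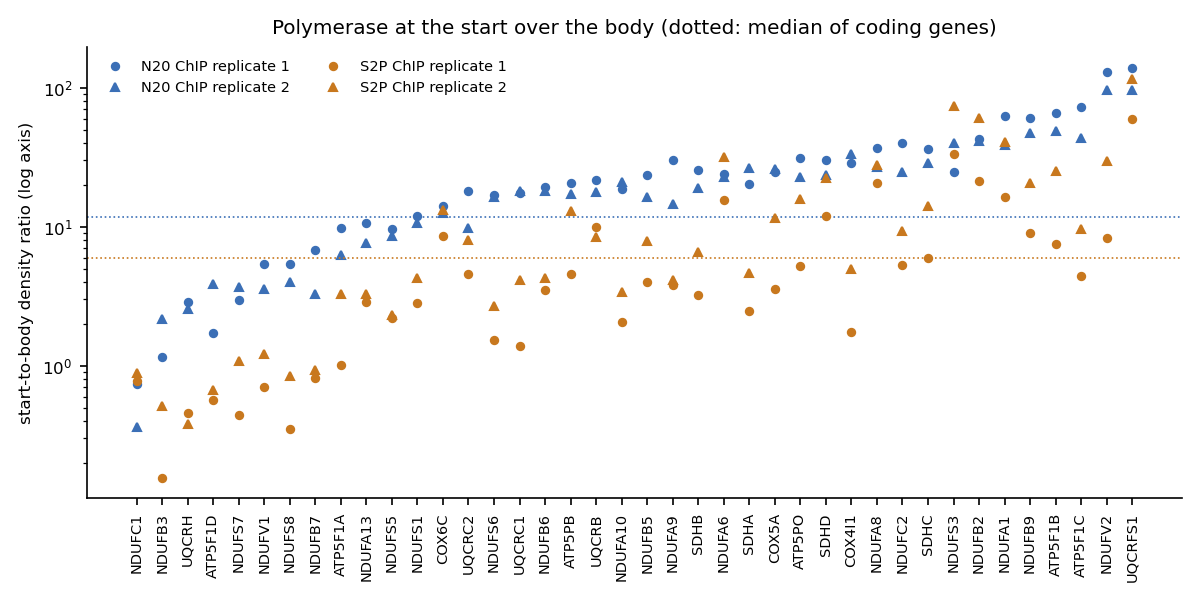
Ratio of polymerase density at the start to that over the body (log axis) for 40 members in order of the mean N20 ratio, with circles for replicate 1 and triangles for replicate 2 of N20 and S2P ChIP and dotted lines at the medians of coding genes (11.8 and 5.98). NDUFA5, at 0, cannot be shown on a log axis, and 28 members lie above the N20 line.

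The subunits encoded in mitochondrial DNA are made outside the nucleus by another polymerase, and their values are given beside the nuclear genes as a description. Mitochondrial counts were 2 to 2.14% of a TT-Seq library, 3.83 to 4.24% of 4sU-Seq, 2.94 to 3.26% of sheared total RNA and 4.02 to 4.07% of unsheared total RNA. Of the 13 genes, 12 had lower values in TT-Seq than in sheared total RNA. MT-CO3 of complex IV had 783.6 and 771.2 CPM against 2051 and 2124, a log2 ratio of -1.43. MT-ND6 of complex I, the one of the 13 on the minus strand, had 816.8 and 802.1 CPM against 485.5 and 608.8, a log2 ratio of 0.56.

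Other genes of the pathway were counted in TT-Seq against sheared total RNA by the same edgeR fit. In that fit 33.5% of all genes were lower and 32.8% higher (coding genes 37.8% and 30.7%). Of 29 other nuclear subunit genes 12 were lower and 7 higher, with a median of -0.18, from COX6A1 at -1.6 to NDUFS4 at 0.95. Of 46 assembly factors tested, which build the complexes without staying in them, 16 were lower and 18 higher, with a median of 0.03, from NDUFAF3 at -1.54 to COX10 at 1.12. Of 21 regulators and genes of mitochondrial DNA expression 7 were lower and 12 higher, with a median of 0.26, from ESRRA at -1.12, a nuclear receptor that acts on mitochondrial genes, to SLIRP at 1.37, a stabiliser of mitochondrial mRNA. For comparison, 57 of 85 cytosolic ribosomal protein genes were lower and 9 higher, with a median of -0.64, and 13 of 29 proteasome subunit genes were lower and 12 higher, with a median of -0.02. These lists were not matched for span length, and the differences between them were not tested.

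In the authors' deposited table of rates, 41 members had a transcriptional unit and 36 had rates, on a scale that the sources used here do not state. The authors' synthesis rate of the members had a median of 0.0199, from 2.57e-06 to 1.19, against 0.00599 over 6913 units of the mRNA class. The sets compared differ, since not all units of the members were of the mRNA class. Those of NDUFA1, CYC1 and COX7C had no class, for example, and that of NDUFB6 had another. In the authors' deposited table the decay rate had a median of 0.0158, against 0.0141. NDUFB4, SDHB, UQCRC1, UQCRC2, COX5A and ATP5F1C carried the same pair of rates in the authors' deposited table, 0.2772 and 0.1386. The units of 13 members also held another gene.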

How the data were processed

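The deposited values used here were whole counts of fragments in 200 bp bins on hg38, per the file headers and their description, by strand for 8 RNA libraries and without strand for 4 ChIP libraries. The submitters' processing notes name SAMtools, Bowtie2 2.1.0 and STAR 2.3.0 without their roles, and the handling of multi-mapping reads is not stated in the sources used here, so counts of members with processed pseudogenes elsewhere in the genome, which could share reads, are uncertain. The authors also deposited synthesis and decay rates per transcriptional unit, a quantity whose scale and unit are not stated.

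Bins were summed over RefSeq spans on GRCh38.p14. The strand came from the RefSeq promoter table for 42 members and from the strand with at least 20-fold more counts for 10; over 7055 coding genes with both, 96.5% gave the same strand. Sums were tested with edgeR 4.0.16 in R 4.3.3 (filterByExpr, TMM, robust quasi-likelihood fit, Benjamini-Hochberg over all genes), with the 8 RNA libraries in 1 fit and the 4 ChIP libraries in another. Total RNA-Frag-Seq is called sheared total RNA, and the unsheared kind Total RNA-Seq. CPM, the counts-per-million unit, is relative to the counts in tested genes times the TMM factor. Errors are standard errors of the fit, and values of a group are those of its 2 libraries. Precision depends on the spread between libraries as well as on the counts, 261 to 12081 per member and RNA library. The common biological coefficient of variation was 0.0585 in RNA and 0.162 in ChIP.

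The fits were run on simulated counts with known changes and the same dispersion for every gene. Changes of 1 on the log2 scale were called in the right direction for 88.5% of changed genes in RNA and 46.5% in ChIP. For changes of 0.5 the shares were 73.5% and 9.09%. False calls made up 4.85% of calls in RNA and 6.78% in ChIP. A member not called in ChIP is thus not shown to be unchanged. Alternatives were DESeq2 1.42.0, other scalings and filters, coding genes only, the authors' units, bins free of other genes, a replicate block and leaving out each library. Members and gene lists were chosen with earlier results of these data known. All 52 members could be named. Values in each library are given for the 5 highest and lowest members in TT-Seq against sheared total RNA, the extremes of each complex, and the 3 highest and lowest in other comparisons and levels. The exon and intron count tables were not used, since their rows could not be matched to units.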

Additional observations from a re-analysis of the deposited data

Results flagged for a closer look

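The effect of purification differed between sheared and unsheared RNA by a direct test, the interaction in edgeR's quasi-likelihood fit with Benjamini-Hochberg adjustment over 17468 genes. It was higher in sheared RNA for 8 members and lower for 20 of 52, where 18.3% and 23.4% of all genes were called. The lowest were COX8A at -1.67, NDUFA2 at -1.61 and CYC1 at -1.4 (log2), all genes with spans under 5 kb. The highest were NDUFC1 at 0.94, SDHB at 0.64 and ATP5PO at 0.57, with spans of 12.6, 35.3 and 12.4 kb. With the members' span length the interaction had a Spearman correlation of 0.76, against 0.21 over coding genes. The part of length in these differences was not tested.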

How the results depend on the processing

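Of 658 values of named members under alternatives, 630 kept their direction and side of the threshold, 23 lost the call, 4 gained one and 1 reversed, UQCRC2 in TT-Seq against sheared total RNA, at -0.32 over the authors' unit. Without TMM, 8 members were higher in TT-Seq against 4sU-Seq (19.7% of all genes). In sheared total RNA against unsheared total RNA 1 member was higher and 15 lower without it (10% and 22.2% of all genes). In S2P against N20 ChIP 19 members were lower without it (44.7% of all genes). In sheared total RNA against unsheared total RNA 11 were lower with DESeq2 size factors (13% of all genes) and 11 with the DESeq2 test (10.4%). There 11 were lower and 1 higher with a mean of at least 1 CPM (15.5% and 19.2% of all genes). The counts were the same with only the libraries compared (16.4% and 17.5%). With coding genes only, 7 were lower in S2P against N20 ChIP (21.7% of genes). Over the authors' units, 3 were higher in 4sU-Seq against unsheared total RNA (40.2% of all units). There 7 were higher in TT-Seq against 4sU-Seq (19.5%) and 5 in the interaction (8.65%). The next settings were chosen after seeing the data, apart from the free windows and bins and the wider start window. Members with no gene within 1000 bp gave 5 higher and 0 lower in S2P against N20 ChIP. Over all coding genes, isolated or not, 31.7% were higher and 14.7% lower. The densest 20% of bins, taken anew in each library, held 54.5% of TT-Seq and 69.9% of 4sU-Seq counts. They held 75.5% of sheared total RNA and 75.6% of unsheared total RNA counts. Free windows gave 12 higher and 0 lower of 13 members tested upstream (82.3% and 4.33% over all genes) and 3 lower of 37 downstream (7.83%), by construction from fewer members. The median N20 start-to-body ratio was 13.9 with the wider window and 22.3 with 1 listed start, and the median level over free bins 3.18 CPM per kb in TT-Seq and 4.46 in unsheared total RNA. Elsewhere the cause was not tested.

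Leaving out 1 library at a time gave 6 to 10 higher and 23 to 33 lower members in TT-Seq against sheared total RNA, 4 to 8 and 15 to 18 in 4sU-Seq against unsheared total RNA, 11 to 14 and 22 to 25 in TT-Seq against 4sU-Seq, 1 to 3 and 2 to 19 in sheared total RNA against unsheared total RNA, 6 to 11 and 18 to 26 in the interaction, 14 to 21 and 1 to 9 in S2P against N20 ChIP, 24 to 27 and 4 to 5 upstream, and 38 to 40 and 4 to 5 downstream. A lone library was assumed to vary like the other groups. The shares of all genes called also moved in these fits, so the counts alone do not set the members apart.

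The labels give same-numbered replicates only a shared number, and whether they also share a culture or preparation is not stated. Their deviations correlated at 0.171 between TT-Seq and 4sU-Seq and 0.058 between TT-Seq and sheared total RNA. The correlation was -0.114 between 4sU-Seq and unsheared total RNA, 0.038 between the total RNA groups and -0.041 between the ChIP groups. A replicate block gave 9 higher and 30 lower members in TT-Seq against sheared total RNA (33.3% and 34% of all genes). It gave 6 and 22 in 4sU-Seq against unsheared total RNA (28.7% and 28.9%). In TT-Seq against 4sU-Seq it gave 14 and 27 (29.3% and 29.6%). In sheared total RNA against unsheared total RNA it gave 2 and 10 (18.8% and 12.5%). The interaction had 10 and 22 (19.2% and 24.3%), and S2P against N20 ChIP 17 and 3 (23.1% and 19.9%). The crossed pairing of 4sU-Seq with unsheared total RNA, chosen after seeing the data, gave 6 higher and 22 lower (27.7% and 27.9%). The interaction uses all 8 RNA libraries, so a fit with only the libraries compared gives no other value. Replicates of every group differed by more than sampling noise, from 3.12 times in unsheared total RNA to 43.73 times in S2P ChIP.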
